A study of Homo sapiens with 9 samples.

Results

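Chaperone genes were followed in MOLM13 cells, a human acute myeloid leukemia (AML) line with a rearranged KMT2A (MLL) gene, after loss and after overexpression of the RNA-binding protein RBM5. The members were taken by symbol from the protein-coding rows of the gene table: the HSPA, HSPB, HSPD, HSPE, HSPH and HSP90 genes, the DNAJA, DNAJB and DNAJC genes, TCP1 and the CCT genes, the heat shock factors HSF1 and HSF2, and BAG1 to BAG6. This gave 90 of 57820 named genes. The members were picked by name, but with earlier results of these data known. Of the 90, 76 passed the filter on low counts over all 9 libraries, beside 14754 genes in all. The 14 that failed, none with more than 9 counts in a library, were HSPA12A, HSPA2, HSPB2, HSPB3, HSPB8, HSPB9, CCT8L2, DNAJB7, DNAJB8, DNAJB13, DNAJC5G, DNAJC6, DNAJC12 and DNAJC22.

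Total RNA was sequenced after removal of ribosomal RNA in 3 groups of 3 libraries, described in the labels as biological replicates. CTRL cells carried a non-targeting sgRNA and RBM5 KO cells the guide RBM5-sg1, and the methods describe such cells as MOLM13 with stable Cas9. RBM5 OE cells carried a lentiviral vector for an RBM5 cDNA followed by P2A and Venus. No library with an empty vector was analysed here, so RBM5 and the vector cannot be told apart in the comparisons of RBM5 OE with CTRL or with RBM5 KO. Whether RBM5 OE cells also carried Cas9 is not clear, so a difference in Cas9 or sgRNA cannot be told apart from RBM5 either. The labels give all groups as untreated and grown in the same medium, and neither the time after transduction nor the use of single clones is given in them. As bulk samples, these libraries cannot tell fewer cells that express a gene from less RNA per cell.

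RBM5 itself followed the labels. It stood at 122, 117 and 113 CPM (counts scaled to the library total and a TMM factor) in CTRL, while KO libraries held 70.5, 73.9 and 79.4 CPM and RBM5 OE libraries 380, 414 and 416 CPM. Its log2 fold change was -0.65 ± 0.08 (SE) in RBM5 KO and 1.78 ± 0.07 in RBM5 OE (adjusted p = 0.00692 and 4.11e-08). Libraries held 25522952 to 27871988 expected counts, so depth hardly differed. All 8 myeloid markers examined were present, between 13.8 TPM (CSF1R) and 1171 TPM (LYZ) in CTRL, whereas HBB, PF4 and EPCAM were listed at 0 in all 9 libraries and KRT18 (8.30 TPM) had the highest level of the 12 markers of other cell types. LYZ, 1 of these 8 markers, rose in RBM5 KO and fell in RBM5 OE (log2 fold change 0.76 and -1.29). Directions of the other myeloid markers are not reported here, and the part of LYZ in the chaperone results was not tested.

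Chaperones bind unfolded or partly folded proteins and release them to fold. HSP70 proteins (HSPA genes) do so in cycles of ATP use, J-domain proteins (DNAJ genes) bring them clients and stimulate the ATPase, and BAG and HSPH proteins exchange the nucleotide. HSP90 proteins act later on kinases, receptors and other signalling proteins, CCT is a ring-shaped chaperonin for actin, tubulin and other cytosolic proteins, and HSPD1 with HSPE1 forms the chaperonin of mitochondria. In stress, HSF1 binds heat shock elements, repeats of nGAAn in alternating orientation, and raises the cytosolic members, while the unfolded protein response raises those of the endoplasmic reticulum (ER). Leukemia cells, with a high load of client proteins, are known to rely on several of these proteins.

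In RBM5 OE, chaperone genes were mostly lower than in CTRL. Decreases were called for 33 of 76 (43.4%) and increases for 6 (7.89%), with an adjusted p below 0.05 by edgeR's quasi-likelihood test, against a background of 20.2% of all genes that fell and 19.8% that rose. All RBM5 OE libraries lay below all CTRL libraries for 37 genes (48.7%, background 25.5%) and above them for 12 (15.8%, background 26.1%). The 37 include HSPA12B, and the 6 and the 12 include HSPB6. Each passed the filter only through the group where it was higher, so neither carries weight there. The median log2 fold change over the 76 was -0.17 beside 0.01 over all genes tested. In RBM5 KO, 3 of 75 rose, namely HSPA5, HSP90B1 and DNAJC3, which all work in the ER, against a background of 0.837% of genes that rose and 1.67% that fell. The number that fell in RBM5 KO was 0 with edgeR, where 5 (6.67%, background 8.62%) had an unadjusted p under 0.05. DESeq2 gave 2 and limma-voom 0, where 457 and 170 of 14218 genes fell. All RBM5 KO libraries lay above all CTRL libraries for 14 genes (18.7%, background 11.2%) and below them for 5 (6.67%, background 11.7%). The median in RBM5 KO was 0.09, beside 0.01 over all genes.

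Compared directly, RBM5 OE and RBM5 KO differed in 43 of the 76 genes, with 35 lower and 8 higher in RBM5 OE, against backgrounds of 20.6% and 19.5%. The median difference was -0.33 on the log2 scale and 0.00 over all genes. The libraries of the 2 groups did not overlap for 48 genes, lower in RBM5 OE for 37 (48.7%, background 26.0%) and higher for 11 (14.5%, background 26.6%). Both the 8 and the 11 include HSPB6, which passed the filter only through the RBM5 OE libraries, so its place among them carries no weight. HSPA12B, among the 35 and the 37, passed the filter only through the CTRL and RBM5 KO libraries, where it was higher. It stood at 0.293, 0.318 and 0.417 CPM in RBM5 OE, and its place carries no weight either. Both comparisons with CTRL use the same 3 CTRL libraries, so their values are given side by side and are not independent of each other.

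**Figure D1:**
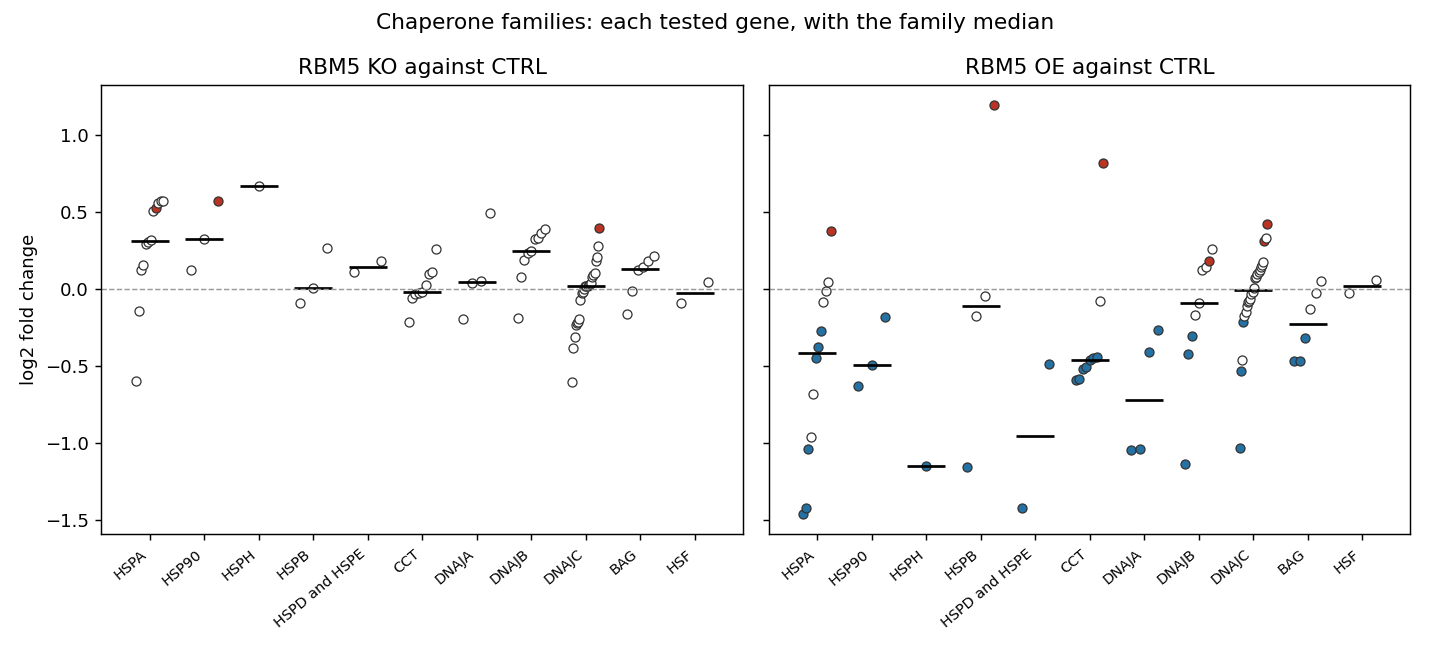
Log2 fold change of each tested chaperone gene (points) by family for RBM5 KO (left) and for RBM5 OE (right), both against CTRL. Red points rose and blue points fell at an adjusted p under 0.05, white points did not pass, and the bar is the family median. In RBM5 OE all tested HSP90, HSPH, HSPD and HSPE and DNAJA genes fell (20.2% of all genes fell), while the DNAJC genes lie on both sides of 0.

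CTRL replicate 3 and RBM5 KO replicate 1 stood apart from the other libraries of their groups, and chaperone genes took part in this more often than other genes. Of 75 genes tested in RBM5 KO, 32 (42.7%) had their group's highest value in both of these libraries, beside 20.1% of all genes, and 11 (14.7%) had the lowest in both, beside 21.1%. The members held 1.23 to 1.39% of all counts in CTRL, 1.34 to 1.61% in RBM5 KO and 0.963 to 0.990% in RBM5 OE, with the top value of CTRL and of RBM5 KO in the same 2 libraries. The count of members that fell in RBM5 OE was not smaller without CTRL replicate 3: 35 fell and 5 rose, with backgrounds of 21.2% and 20.7%. Without both libraries, 11 members rose and 5 fell in RBM5 KO, with backgrounds of 6.94% and 6.68%, and 36 were lower and 14 higher in RBM5 OE than in RBM5 KO, with backgrounds of 23.3% and 22.9%.

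**Figure D2:**
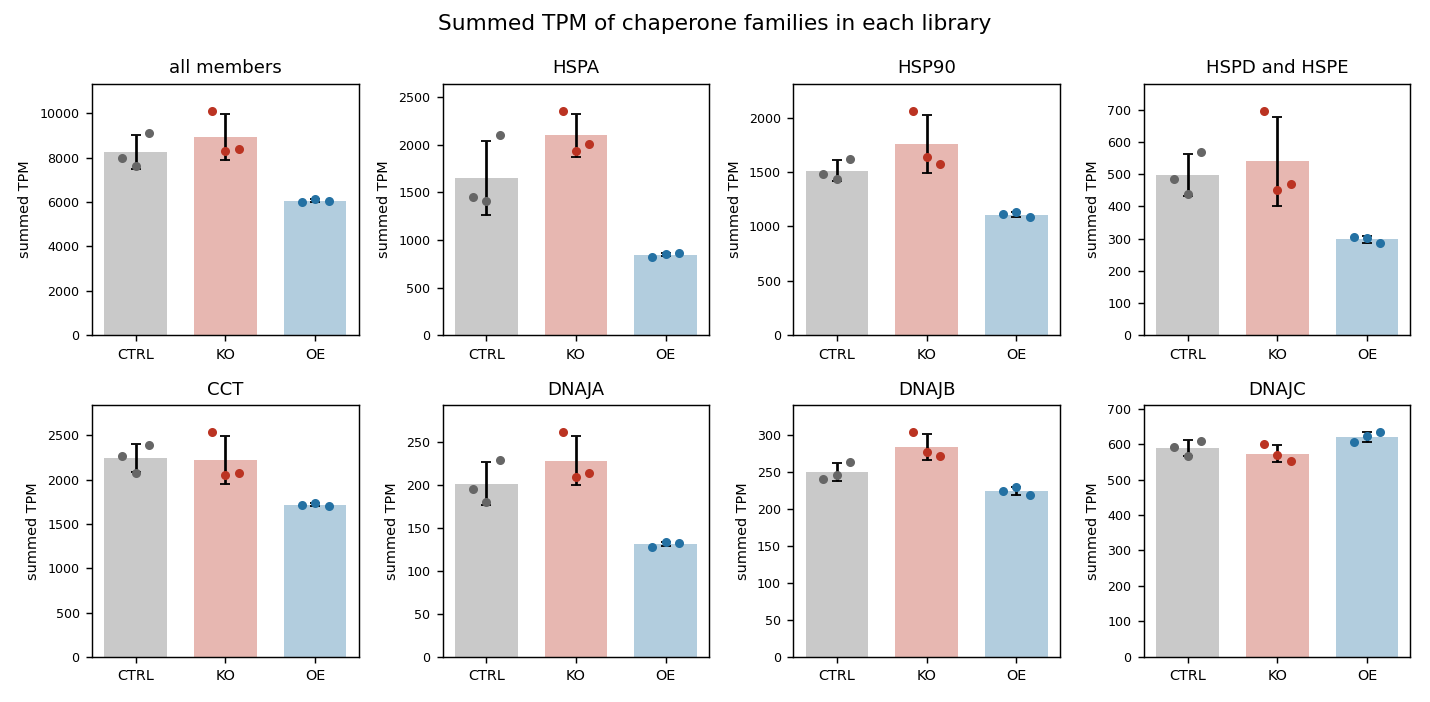
Summed TPM of all members and of 7 families in each library (points), with the group mean (bar) and SD (n = 3). The RBM5 OE libraries lie together and below all CTRL and RBM5 KO libraries for all members, HSPA, HSP90, HSPD and HSPE, CCT, DNAJA and DNAJB, but not for DNAJC.

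Summed as TPM (transcript abundance scaled by length, so that genes can be added), all members came to 8241 ± 765 for CTRL, 8943 ± 1028 for RBM5 KO and 6058 ± 61.5 for RBM5 OE (SD, n = 3). The HSPA sum was 1654 ± 389, 2102 ± 226 and 846 ± 19.3 in that order. That of the 24 detected and 4 rare DNAJC genes was 589 ± 22.4, 573 ± 24.0 and 621 ± 14.0, so the most numerous family did not share the lower sums. RBM5 OE libraries were close to each other, while CTRL and RBM5 KO spread widely in the HSPA sum, with CTRL replicate 3 at 2103 TPM against 1452 and 1408 TPM in the other CTRL libraries.

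Among the HSP70 genes, HSPA8, the constitutive cytosolic HSC70, was among the most abundant members in CTRL, with 878, 884 and 1549 TPM beside 1023, 1016 and 1136 TPM of HSP90AB1, so that HSPA8 was the higher of both only in CTRL replicate 3. It lies at chr11:122928197-122933938 on the minus strand of GRCh37. HSPA8 stood at 1069, 1182 and 1846 CPM in CTRL, 2174, 1866 and 1790 CPM in RBM5 KO and 489, 498 and 497 CPM in RBM5 OE. All RBM5 OE libraries were below all others, and RBM5 KO overlapped CTRL only through CTRL replicate 3. The log2 fold change in RBM5 OE was -1.46 ± 0.16 (adjusted p = 4.62e-05), and -1.19 without CTRL replicate 3 (adjusted p = 2.53e-11). In RBM5 KO it was 0.51 ± 0.19 and did not pass (adjusted p = 0.212); without CTRL replicate 3 it was 0.79 (adjusted p = 0.0125).

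The stress-inducible HSP70 gene HSPA1B (chr6:31795515-31798031, plus strand, GRCh37) also fell in RBM5 OE. Its values were 82.6, 87.3 and 107 CPM in CTRL, 119, 103 and 117 CPM in RBM5 KO and 34.4, 34.1 and 34.6 CPM in RBM5 OE. The log2 fold change was -1.42 ± 0.10 in RBM5 OE (adjusted p = 2.54e-06) and 0.29 ± 0.11 in RBM5 KO (adjusted p = 0.241; without both libraries that stood apart 0.37, adjusted p = 0.00924). HSPA1A encodes the same protein from a near-identical copy, so the counting can split or shift reads between both; HSPA1A was listed at 0.667 to 2.14 CPM in all libraries, and the level of either alone is uncertain. HSPA6, a strictly inducible HSP70, was low, at 2.35, 2.81 and 2.38 CPM in CTRL, and fell to 1.32, 1.13 and 1.21 CPM in RBM5 OE (log2 fold change -1.04 ± 0.24, adjusted p = 0.0049).

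Of the other HSPA genes, HSPA4, a nucleotide exchange factor of the HSP110 type, fell in RBM5 OE (-0.38 ± 0.07, adjusted p = 0.00142), as did HSPA14, an HSP70 of the ribosome (-0.27 ± 0.07, adjusted p = 0.0108). The related HSPA4L rose (0.38 ± 0.12, adjusted p = 0.0239). The call of HSPA14 was lost without RBM5 OE replicate 2 (adjusted p = 0.072). That of HSPA4L was lost without CTRL replicate 1 or 2 or without any RBM5 OE replicate (adjusted p = 0.054 to 0.104), and on log2(TPM + 1) with limma HSPA4 did not pass (adjusted p = 0.137). HSPA9, the mitochondrial mortalin, stood at 454, 414 and 429 CPM in CTRL and at 445, 432 and 405 CPM in RBM5 OE, with overlapping groups (log2 fold change -0.01 ± 0.07, adjusted p = 0.889). HSPA13, a microsomal HSP70, was lower in all RBM5 KO libraries (41.1, 38.1 and 33.9 CPM) than in CTRL (67.1, 57.5 and 46.3 CPM) but did not pass (-0.60 ± 0.14, adjusted p = 0.0639); DESeq2 called it (adjusted p = 0.00283), as did edgeR without CTRL replicate 3 or without RBM5 KO replicate 1 (adjusted p = 0.0249 and 0.0224). HSPA12B and HSPA1L, both under 2 CPM, did not pass in either comparison with CTRL. Over the 12 tested HSPA genes, 6 fell and 1 rose in RBM5 OE, with a median of -0.41, beside 20.2% and 19.8% of all genes.

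HSPH1 (HSP105/110), the nucleotide exchange factor of the heat shock response, followed HSPA8. It stood at 138, 128 and 201 CPM in CTRL, 296, 225 and 221 CPM in RBM5 KO and 74.9, 70.5 and 64.4 CPM in RBM5 OE, so that all 3 groups were apart. The fall in RBM5 OE was -1.15 ± 0.14 (adjusted p = 9.92e-05), and -0.93 without CTRL replicate 3 (adjusted p = 1.02e-08). In RBM5 KO the log2 fold change was 0.67 ± 0.18 and did not pass (adjusted p = 0.0934), while without CTRL replicate 3 it was 0.89 and passed (adjusted p = 0.0206). Between RBM5 OE and RBM5 KO the difference was -1.82 (adjusted p = 1.1e-05).

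**Figure D3:**
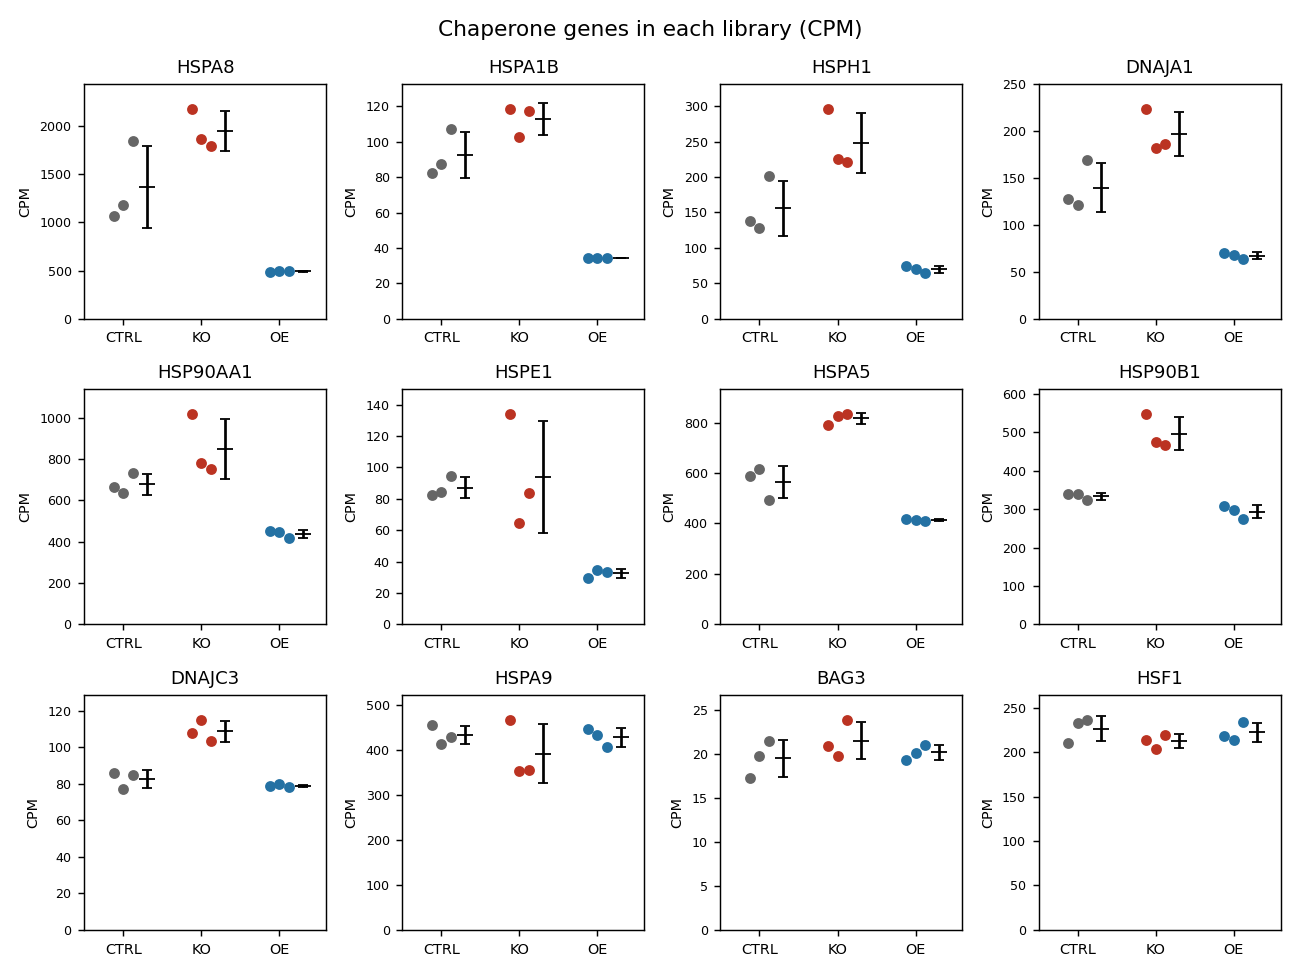
CPM of 12 chaperone genes in each library (points), with the group mean and SD (n = 3) beside them. HSPA8, HSPA1B, HSPH1, DNAJA1, HSP90AA1 and HSPE1 are lowest in all RBM5 OE libraries, HSPA5, HSP90B1 and DNAJC3 are highest in all RBM5 KO libraries, and HSPA9, BAG3 and HSF1 overlap between groups.

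All 3 HSP90 genes fell in RBM5 OE, beside 20.2% of all genes. HSP90AB1, the constitutive cytosolic form (1059 ± 67.3 TPM in CTRL), stood at 2093, 2205 and 2294 CPM in CTRL and at 1551, 1578 and 1540 CPM in RBM5 OE (log2 fold change -0.50 ± 0.06, adjusted p = 6.73e-05). HSP90AA1, the inducible cytosolic form, went from 663, 636 and 731 CPM to 450, 445 and 416 CPM (-0.63 ± 0.07, adjusted p = 5.08e-05). Neither passed in RBM5 KO, where HSP90AA1 stood at 1016, 779 and 753 CPM, above all CTRL libraries (0.33 ± 0.12, adjusted p = 0.22), and HSP90AB1 at 2877, 2190 and 2127 CPM, overlapping CTRL (0.13 ± 0.12, adjusted p = 0.649). RBM5 KO replicate 1 was the highest of its group for both.

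Promoter stretches of 6 genes called lower in RBM5 OE are given to show how heat shock and ER stress motifs lie in them. They were read from the RefSeq promoter windows of build GRCh38.p14, which reach from 250 bases before to 50 bases after each gene start, and only bases upstream of the start are printed. Motifs searched on both strands were GAANNTTC and TTCNNGAA, which are pairs of heat shock units, runs in which these pairs overlap by 1 unit to give 3 units in a row, and the ER stress element, CCAAT followed by CCACG after any 9 bases. Capitals mark the matches. The heat shock motifs are shown for HSPA8, HSP90AA1, HSPA1B and HSPD1, each of which fell in RBM5 OE.
HSPA8, chr11:123062137-123062256, minus strand, bases -120 to -1: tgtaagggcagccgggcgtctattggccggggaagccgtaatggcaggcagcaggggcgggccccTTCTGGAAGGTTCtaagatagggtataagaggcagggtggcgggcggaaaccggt
HSP90AA1, chr14:102087065-102087164, minus strand, bases -120 to -21: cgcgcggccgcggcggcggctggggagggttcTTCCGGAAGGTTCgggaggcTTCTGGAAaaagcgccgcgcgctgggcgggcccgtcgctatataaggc
HSPA1B, chr6:31827608-31827687, plus strand, bases -130 to -51: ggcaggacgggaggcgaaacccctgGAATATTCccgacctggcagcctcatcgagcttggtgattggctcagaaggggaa
HSPD1, chr2:197500011-197500090, minus strand, bases -250 to -171: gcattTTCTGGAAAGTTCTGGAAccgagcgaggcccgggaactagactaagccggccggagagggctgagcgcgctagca

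A run of 3 units was present in the windows of 7 of the 79 members with a window (8.86%), beside 0.608% of 27305 genes. Runs of 3 units were found in HSPA6, HSPD1, HSP90AB1, DNAJB6, DNAJA1, HSPA8 and HSP90AA1; 6 of these 7 fell in RBM5 OE, and DNAJB6 did not pass (log2 fold change -0.17, adjusted p = 0.0644). Of the 60 tested members with a window but no such run, 23 fell and 5 rose, and 20.2% of all genes fell. A pair of units in either order was present in 27 of 79 members (34.2%) and in 16.2% of all genes. Of the members tested in RBM5 OE, 12 of 23 with a pair fell and 3 rose (median -0.44), while 17 of 44 without one fell and 2 rose (median -0.09). The 3 with a pair and the 5 without a run that rose include HSPB6. It passed the filter only through the RBM5 OE libraries, so its place among them carries no weight. A match describes letters in this window and does not mean that a factor binds there, and the search for runs of 3 units was added after the values were known.

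HSPD1 and HSPE1, the mitochondrial chaperonin HSP60 and its cochaperonin HSP10, are transcribed away from each other from starts 539 bases apart on chromosome 2. The heat shock run in the HSPD1 window lies between them, 294 to 311 bases from the start of HSPE1 and so outside the window of HSPE1, which held no match. Both fell in RBM5 OE. HSPE1 stood at 82.4, 84.7 and 94.6 CPM in CTRL, 134, 64.7 and 83.6 CPM in RBM5 KO and 29.3, 34.6 and 33.6 CPM in RBM5 OE (RBM5 OE against CTRL -1.42 ± 0.09, adjusted p = 1.33e-06). HSPD1 went from 498, 460 and 566 CPM in CTRL to 385, 356 and 344 CPM in RBM5 OE (-0.49 ± 0.08, adjusted p = 0.000781). RBM5 KO overlapped CTRL for both genes, with RBM5 KO replicate 1 above the rest.

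Small heat shock proteins, which hold unfolded proteins without ATP, changed less uniformly. HSPB1 (HSP27), the third most abundant member by TPM in CTRL (508 ± 27.9), stood at 298, 342 and 285 CPM in CTRL and at 274, 270 and 276 CPM in RBM5 OE. All RBM5 OE libraries were lower, but the difference did not pass (-0.18 ± 0.07, adjusted p = 0.0774). It passed with DESeq2 (adjusted p = 0.0482) and without CTRL replicate 3 (adjusted p = 0.0121). HSPB7 fell in RBM5 OE, from 14.4, 18.5 and 7.22 CPM in CTRL to 5.93, 6.21 and 5.76 CPM (-1.16 ± 0.26, adjusted p = 0.00436). HSPB6, under 1 CPM in all CTRL and RBM5 KO libraries, failed the filter in RBM5 KO against CTRL and passed it in RBM5 OE against CTRL only through the RBM5 OE libraries, at 1.21, 1.02 and 1.06 CPM, so its call as higher there, 1 of the 6, carries no weight (1.19 ± 0.43, adjusted p = 0.0433). That call was lost with DESeq2 and when CTRL replicate 2 or 3 or any RBM5 OE replicate was left out (adjusted p = 0.0911 to 0.146). HSPB11, which is also a part of the intraflagellar transport complex, overlapped between groups (-0.04 ± 0.16, adjusted p = 0.857).

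The chaperonin CCT is built from 8 different subunits. In RBM5 OE 7 of the 8 fell, beside 20.2% of all genes, and CCT8 did not pass. The 7 lay within a narrow range of log2 fold changes from -0.44 (TCP1) to -0.59 (CCT4). CCT3 stood at 357, 393 and 392 CPM in CTRL and at 243, 250 and 266 CPM in RBM5 OE (-0.59 ± 0.07, adjusted p = 5.76e-05). CCT4, CCT5, CCT6A, CCT2, CCT7 and TCP1 had adjusted p of 9.77e-05, 0.000111, 0.00025, 0.000249, 0.000279 and 0.000558. CCT8 stood at 679, 578 and 598 CPM in CTRL and at 606, 594 and 554 CPM in RBM5 OE (-0.08 ± 0.07, adjusted p = 0.424), and at 522, 541 and 538 CPM in RBM5 KO, below all CTRL libraries without passing (-0.21 ± 0.09, adjusted p = 0.258). In RBM5 KO the 8 subunits lay between -0.21 and 0.26.

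By TPM, CCT8 was also the most abundant subunit in CTRL (441 ± 53.0), followed by TCP1 (377 ± 33.3), CCT5 (317 ± 22.0), CCT7 (314 ± 9.83), CCT3 (242 ± 11.4), CCT2 (237 ± 21.7), CCT6A (183 ± 27.9) and CCT4 (133 ± 15.3). The mean ± SD ranges of CCT8 and TCP1, of CCT5 and CCT7, and of CCT3 and CCT2 overlapped. CCT6B, a testis form of CCT6A, was rare (2.07 ± 0.46 TPM) and rose in RBM5 OE, from 2.20, 2.89 and 1.40 CPM to 3.95, 3.39 and 4.06 CPM (0.82 ± 0.26, adjusted p = 0.0243). This call was lost without CTRL replicate 1 (adjusted p = 0.0666), RBM5 OE replicate 1 (0.0798) or RBM5 OE replicate 3 (0.0779).

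**Figure D4:**
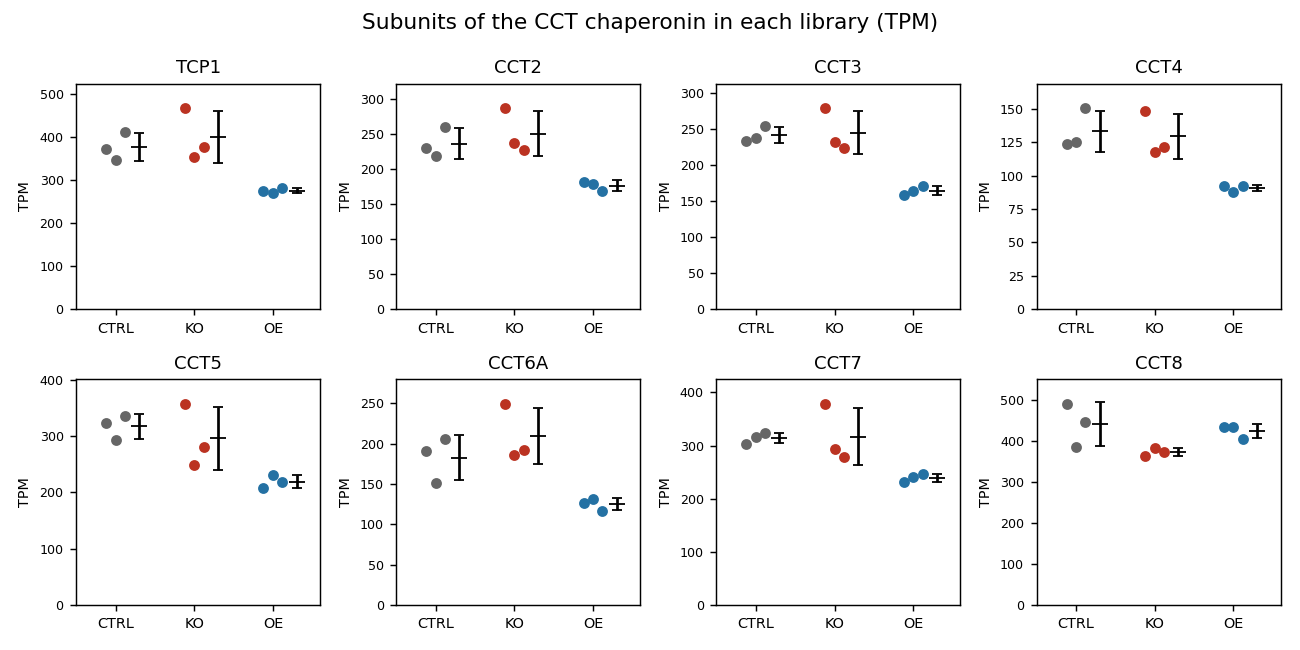
TPM of the 8 subunits of the CCT chaperonin in each library (points), with the group mean and SD (n = 3). The RBM5 OE libraries lie below all CTRL libraries for the 7 subunits other than CCT8, whose CTRL and RBM5 OE libraries overlap.

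J-domain proteins split by class. All 4 DNAJA genes fell in RBM5 OE, beside 20.2% of all genes. DNAJA1, a cytosolic partner of HSPA8, stood at 128, 122 and 170 CPM in CTRL, 224, 182 and 186 CPM in RBM5 KO and 70.3, 68.5 and 63.6 CPM in RBM5 OE, so that all 3 groups were apart. Its log2 fold change was -1.05 ± 0.11 in RBM5 OE (adjusted p = 4.33e-05) and 0.49 ± 0.14 in RBM5 KO (adjusted p = 0.108; DESeq2 0.0153, without CTRL replicate 3 0.0341). DNAJA4 fell by a similar amount (-1.04 ± 0.12, adjusted p = 5.75e-05), the mitochondrial DNAJA3 by less (-0.41 ± 0.07, adjusted p = 0.00098) and DNAJA2 least (-0.26 ± 0.07, adjusted p = 0.0143). The call of DNAJA2 was lost without RBM5 OE replicate 2 (adjusted p = 0.0725) or 3 (0.0537).

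Of 9 tested DNAJB genes, 3 fell and 1 rose in RBM5 OE, beside 20.2% and 19.8% of all genes. DNAJB1 (HSP40), an inducible partner of HSP70, stood at 110, 126 and 146 CPM in CTRL and at 94.4, 96.8 and 93.3 CPM in RBM5 OE (-0.42 ± 0.09, adjusted p = 0.00401). DNAJB11, an ER partner of HSPA5, fell in RBM5 OE (-0.31 ± 0.07, adjusted p = 0.00416) and was higher in all RBM5 KO libraries without passing (0.36 ± 0.08, adjusted p = 0.0551; DESeq2 0.00765, without RBM5 KO replicate 1 0.0439). DNAJB6, which keeps polyglutamine proteins soluble, likewise was higher in all RBM5 KO libraries (0.32 ± 0.08, adjusted p = 0.0606; DESeq2 0.00993, without RBM5 KO replicate 1 0.042). The rare DNAJB5 was called lower in RBM5 OE (-1.14 ± 0.41, adjusted p = 0.044) although its libraries overlapped, and the call was lost without CTRL replicate 1 or 2 or without RBM5 OE replicate 1 or 2 (adjusted p = 0.124 to 0.153). DNAJB12, of the ER membrane with its J domain in the cytosol and therefore listed with the cytosolic members, rose slightly (0.18 ± 0.07, adjusted p = 0.0446), and lost its call in 10 of 15 alternatives, among them the removal of CTRL replicate 1 or 2 or of any RBM5 OE replicate (adjusted p = 0.0689 to 0.173).

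The 24 tested DNAJC genes, a mixed class whose members serve the ribosome, synapse, spliceosome or mitochondria, had a median of -0.01 in RBM5 OE. Of these, 3 fell and 2 rose, beside 20.2% and 19.8% of all genes. DNAJC11, of the mitochondrial membrane, went from 90.3, 96.1 and 102 CPM to 61.2, 70.6 and 67.0 CPM (-0.53 ± 0.08, adjusted p = 0.000285). DNAJC1, of the ER membrane, went from 47.8, 44.4 and 46.3 CPM in CTRL to 64.8, 62.7 and 57.5 CPM in RBM5 OE (0.42 ± 0.07, adjusted p = 0.00104), while its RBM5 KO libraries stood at 36.9, 33.8 and 35.7 CPM, below CTRL without passing (-0.38 ± 0.09, adjusted p = 0.0585). Thus DNAJC1 lay in the opposite order to most cytosolic members, and RBM5 OE exceeded RBM5 KO by 0.80 (adjusted p = 1.81e-05). DNAJC1 passed in RBM5 KO with DESeq2 (adjusted p = 0.0104) and without RBM5 KO replicate 1 (0.0247).

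DNAJC5, a chaperone of synaptic and secretory vesicles, rose in RBM5 OE (0.31 ± 0.07, adjusted p = 0.00489). DNAJC7, a cytosolic link between HSP70 and HSP90, and DNAJC8, of the spliceosome, did not pass in RBM5 OE (0.15 ± 0.06 and -0.03 ± 0.07, adjusted p = 0.0692 and 0.723); with DNAJC8 at 116 ± 9.31 TPM in CTRL, these were the most abundant DNAJC genes. DNAJC14 and the rare DNAJC5B were called lower (-0.22 ± 0.08 and -1.04 ± 0.31, adjusted p = 0.0432 and 0.0196). DNAJC14 lost its call without CTRL replicate 1 or 2 or any RBM5 OE replicate (adjusted p = 0.0803 to 0.125), and DNAJC5B without CTRL replicate 2 or 3 or RBM5 OE replicate 1 or 2 (adjusted p = 0.052 to 0.0758).

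BAG proteins release HSP70 from its nucleotide and clients. BAG1, which links HSP70 to the proteasome, fell in RBM5 OE from 130, 134 and 136 CPM to 95.0, 98.0 and 95.6 CPM (-0.47 ± 0.06, adjusted p = 0.000147). BAG4 and BAG6, the latter a guide for tail-anchored membrane proteins, also fell (-0.47 ± 0.07 and -0.32 ± 0.06, adjusted p = 0.000517 and 0.00193), BAG4 not on log2(TPM + 1) with limma (adjusted p = 0.126). BAG3, an HSF1 target that serves selective autophagy, stood at 17.3, 19.8 and 21.5 CPM in CTRL, 21.0, 19.8 and 23.9 CPM in RBM5 KO and 19.3, 20.2 and 21.1 CPM in RBM5 OE, without separation of the groups (RBM5 OE 0.05 ± 0.10, adjusted p = 0.72). BAG2 and BAG5 did not pass in RBM5 OE (-0.13 ± 0.10 and -0.03 ± 0.09, adjusted p = 0.328 and 0.85).

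The heat shock factors did not differ beyond their spread. HSF1 stood at 210, 233 and 236 CPM in CTRL, 214, 204 and 220 CPM in RBM5 KO and 218, 214 and 234 CPM in RBM5 OE, with log2 fold changes of -0.09 ± 0.08 and -0.03 ± 0.07 (adjusted p = 0.615 and 0.808). HSF2 gave 0.04 ± 0.13 and 0.06 ± 0.12 (adjusted p = 0.913 and 0.722). These are mRNA levels, and the activity of HSF1 is known to be set mainly on the protein.

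The 3 members called in RBM5 KO by edgeR are ER proteins. HSPA5 (BiP, chr9:127997132-128003661, minus strand, GRCh37), the HSP70 of the ER lumen and sensor of unfolded proteins there, stood at 586, 616 and 494 CPM in CTRL, 790, 825 and 832 CPM in RBM5 KO and 417, 413 and 411 CPM in RBM5 OE. All 3 groups were apart. The log2 fold change was 0.53 ± 0.10 in RBM5 KO (adjusted p = 0.028) and -0.45 ± 0.08 in RBM5 OE (adjusted p = 0.000954). HSP90B1 (GRP94, chr12:104323885-104347709, plus strand, GRCh37), the HSP90 of the ER, stood at 339, 340 and 323 CPM in CTRL, 547, 475 and 468 CPM in RBM5 KO and 308, 298 and 276 CPM in RBM5 OE (0.57 ± 0.09, adjusted p = 0.0133, and -0.18 ± 0.06, adjusted p = 0.0409). DNAJC3 (P58IPK), a J-domain partner of HSPA5 and inhibitor of PERK, went from 85.8, 77.1 and 84.8 CPM in CTRL to 108, 115 and 103 CPM in RBM5 KO (0.40 ± 0.08, adjusted p = 0.0472) and overlapped CTRL in RBM5 OE (-0.07 ± 0.07, adjusted p = 0.481).

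These calls in RBM5 KO changed with the libraries used. With 1 library left out, HSPA5 lost its call without any of CTRL replicates 1, 2 and 3 and RBM5 KO replicates 2 and 3 (adjusted p = 0.0592 to 0.136), DNAJC3 without the same 5 (0.108 to 0.185), and HSP90B1 without CTRL replicate 1 or 2 (0.0954 and 0.0729), although the log2 fold changes stayed between 0.34 and 0.61 over all alternatives. In RBM5 OE the call of HSP90B1 was lost without CTRL replicate 1 or 2 or RBM5 OE replicate 2 or 3 (adjusted p = 0.0679 to 0.164). All 3 kept their calls without RBM5 KO replicate 1. Without both libraries that stood apart, the 11 that rose in RBM5 KO were HSPA5, HSP90B1, DNAJC3, DNAJB11, HSPA8, HSPH1, DNAJA1, HSPA4, HSPA1B, DNAJB2 and DNAJB6, and the 5 that fell were HSPA13, DNAJC1, HSPA9, DNAJA3 and DNAJC17.

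The ER stress element was matched in only 2 of the 79 members with a window, HSPA5 and HSP90B1 (2.53%), beside 0.0916% of 27305 genes. Both genes rose in RBM5 KO. The stretches that hold it follow, again upstream bases only and from GRCh38.p14. In HSP90B1 the second match is on the other strand.
HSPA5, chr9:125241364-125241463, minus strand, bases -120 to -21: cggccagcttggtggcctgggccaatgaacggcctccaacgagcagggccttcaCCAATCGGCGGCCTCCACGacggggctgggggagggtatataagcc
HSP90B1, chr12:103930210-103930349, plus strand, bases -200 to -61: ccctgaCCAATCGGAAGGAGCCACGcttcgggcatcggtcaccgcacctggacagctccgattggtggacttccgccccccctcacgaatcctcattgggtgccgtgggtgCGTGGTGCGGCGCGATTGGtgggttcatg

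Sorted by place in the cell, the cytosolic stress-inducible members had the lowest median in RBM5 OE (-0.63, with 7 of 13 that fell and 1, HSPA4L, that rose), followed by the CCT subunits (-0.48, 7 of 8), the constitutive cytosolic members (-0.17, 9 of 21 fell and 2 rose), the ER members (-0.07, 3 of 10 fell and 1 rose) and the mitochondrial members (-0.01, 4 of 9 fell). Over all genes tested in RBM5 OE, 20.2% fell and 19.8% rose. Medians in RBM5 KO were 0.25, 0.00, 0.09, 0.30 and -0.15 in the same order of places. The ER members thus had the highest of the 5 medians in RBM5 KO, and the 3 calls made by edgeR were among them; no difference between places was tested. DESeq2 and the fit of all 9 libraries also called HSPH1, DNAJA1, DNAJB6 and HSPA4 of the cytosol as higher in RBM5 KO (adjusted p = 0.00388 to 0.0365), with DNAJB11 of the ER. The same fits called HSPA13 and DNAJC1, both ER members, as lower in RBM5 KO (adjusted p = 0.00283 to 0.0178). These lists describe the same genes as above and were not tested as sets.

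**Figure D5:**
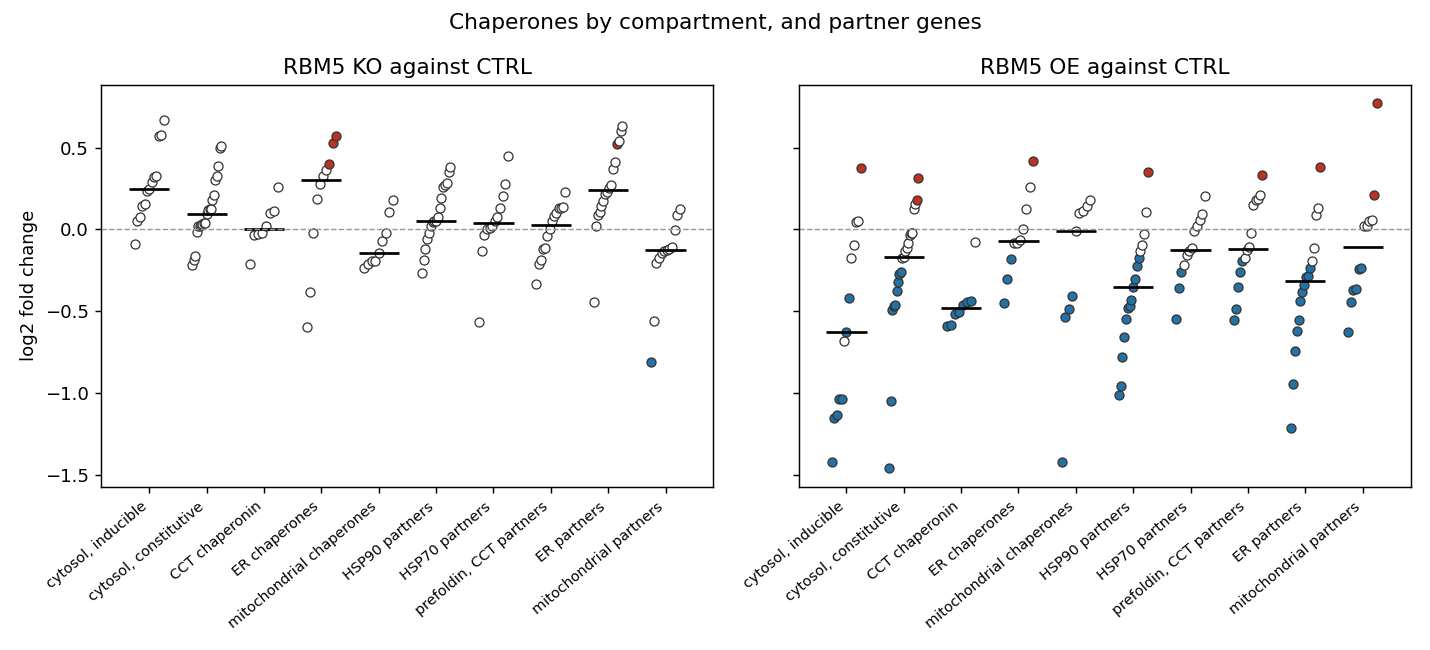
Log2 fold change of chaperones by place in the cell (5 lists at left of each panel) and of partner genes (5 lists at right), in RBM5 KO and RBM5 OE against CTRL. Red points rose, blue points fell, white points did not pass, and the bar is the median. HSP90 partners and ER partners lie mostly below 0 in RBM5 OE, with 12 of 17 and 11 of 16 that fell, beside 20.2% of all genes.

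Partner genes outside the named families were examined with lists of cochaperones and folding enzymes, which were chosen with earlier results of these data known. Over all genes tested in RBM5 OE, 20.2% fell and 19.8% rose. Of 17 HSP90 partners, 12 fell and 1 rose in RBM5 OE (median -0.35). AHSA1, which stimulates the HSP90 ATPase, fell most (-1.02 ± 0.09, adjusted p = 9.59e-06), followed by the immunophilin FKBP4 (-0.96 ± 0.09, adjusted p = 1.53e-05), and FKBP5, a related immunophilin and glucocorticoid target, rose (0.35 ± 0.09, adjusted p = 0.0083). Of 12 HSP70 partners, 3 fell (median -0.13), led by GRPEL1, the mitochondrial exchange factor (-0.55 ± 0.07, adjusted p = 7.71e-05). Among 14 genes of prefoldin and of CCT or tubulin cofactors, 5 fell and 1 rose (median -0.12), with PDCL3 and TXNDC9, phosducin-like cofactors of CCT, going in opposite directions (-0.55 ± 0.10 and 0.33 ± 0.09, adjusted p = 0.00126 and 0.0106).

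Of 16 ER folding partners, 11 fell and 1 rose in RBM5 OE (median -0.32), beside 20.2% and 19.8% of all genes. Those that fell include SDF2L1, a part of the BiP complex (-1.21 ± 0.10, adjusted p = 6.14e-06), MANF, a secreted product of the unfolded protein response (-0.95 ± 0.11, adjusted p = 7.51e-05), and TXNDC5 (-0.56 ± 0.07, adjusted p = 7.41e-05). The collagen chaperone SERPINH1 rose (0.38 ± 0.07, adjusted p = 0.00171). In RBM5 KO the median was 0.24 and 1 of 16 passed, beside 0.837% of all genes that rose and 1.67% that fell. This was MANF, which rose (0.52 ± 0.10, adjusted p = 0.0352), while SERPINH1 was lower in all RBM5 KO libraries without passing (-0.44 ± 0.11, adjusted p = 0.0672). Of 12 mitochondrial folding and protease genes, 6 fell and 2 rose in RBM5 OE (median -0.11), and the protease LONP1 fell in RBM5 KO (-0.81 ± 0.11, adjusted p = 0.0094) and rose in RBM5 OE (0.21 ± 0.07, adjusted p = 0.0332).

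Other targets of HSF1, outside the members taken by symbol, did not move as one. Of 9 tested, 3 fell in RBM5 OE, among them MRPL18 (-0.45 ± 0.07, adjusted p = 0.000645), and 3 rose, among them IER5, a regulator of HSF1 (0.84 ± 0.08, adjusted p = 1.21e-05), and ZFAND2A (0.75 ± 0.14, adjusted p = 0.00118). Among all genes tested in RBM5 OE, 20.2% fell and 19.8% rose. CRYAB, a further target, was listed at 0 in all 9 libraries. IER5 and ZFAND2A therefore differed in direction from HSPA1B, HSPH1 and DNAJB1 in the same libraries.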

How the data were processed

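The 9 libraries came from MOLM13 cells, 3 each of CTRL, RBM5 KO and RBM5 OE. Per the labels, ribosomal RNA was depleted before paired-end sequencing, reads were trimmed (Trim Galore) and mapped to hg19 (STAR 2.7.1a), and genes were quantified with RSEM after GATK 4.1.2.0 had marked duplicates. The deposited expected count values are RSEM estimates per gene, not scaled between libraries, and the deposited TPM values are scaled by length and library. The tables are named as unstranded, so overlapping antisense genes cannot be told apart, and near-identical copies share reads. The 92 spike-in entries were left out. The study's methods name another counter than the labels, and the labels were followed.

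Expected counts were rounded to whole numbers. Testing used edgeR 4.0.16 under R 4.3.3 (filterByExpr, TMM factors 0.9715 to 1.0254, quasi-likelihood test, Benjamini-Hochberg over all genes tested, call at an adjusted p under 0.05). RBM5 KO and RBM5 OE were compared with CTRL in fits of 6 libraries (14218 and 14370 genes), and with each other in the fit of all 9 (14754 genes). Adjusted p-values are from edgeR unless another tool is named. The biological coefficient of variation was 0.145, 0.0956 and 0.125. Errors of log2 fold changes are SE, derived from the test statistic. No 2 libraries were identical or equal within sampling noise. The code was tested on simulated data.

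Alternatives were DESeq2 1.42.0, limma-voom and limma 3.58.1 on log2(TPM + 1), RLE scaling, library totals alone, no filter, a stricter filter (CPM 1 or more in 3 libraries), a fit of all 9 or of 6 libraries, the replicate number as a block, and each library left out. Leaving out CTRL replicate 3 and RBM5 KO replicate 1 together was added after seeing the data. Members and lists were chosen with earlier results of these data known, so no list was tested as a set. Named genes were the up to 5 with the smallest p per family and comparison, the most abundant of each family, a fixed set of main chaperones, and up to 3 per partner list; others were named after their values were seen. Gene positions are from GENCODE v44 lifted to GRCh37 (89 of 90 matched). Promoter windows are from RefSeq, GRCh38.p14, for 79 of 90 members. Protein sequences were not used here. Some genes of the lists are not reported here.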

Additional observations from a re-analysis of the deposited data

How the results depend on the processing

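Depth limits the rare members, such as HSPB6, DNAJB5 and DNAJC5B, which have few counts. Of members called, 27 of 39 in RBM5 OE against CTRL and 38 of 43 in RBM5 OE against RBM5 KO kept their call under every alternative run for them, and 0 of 3 in RBM5 KO against CTRL did. HSPB6 and HSPA12B are among the 38. HSPB6 passed the filter only through the RBM5 OE libraries, and HSPA12B only through the CTRL and RBM5 KO libraries. Their kept calls therefore carry no weight. No value reversed its direction while called. In RBM5 KO, the 3 members that rose and 0 that fell became 8 and 2 with DESeq2 and with all 9 libraries in 1 fit, 5 and 1 with no filter, 11 and 5 without both CTRL replicate 3 and RBM5 KO replicate 1, and 0 to 5 and 0 to 2 with 1 library left out. The share of all genes called in RBM5 KO, in either direction, was 2.51% in the main fit, 5.62% with DESeq2 and 6.04% with all 9 libraries. It was 2.6% with no filter, 13.6% without both libraries and 0.186% to 7.66% with 1 left out. In RBM5 OE against CTRL, the 6 that rose became 3 with all 9 libraries and 2 to 5 with 1 library left out. There the share of all genes called was 40.1% in the main fit, 32.3% with all 9 libraries and 28.6% to 41.9% with 1 left out. In RBM5 OE against RBM5 KO the 8 that rose became 14 without both libraries, where 22.9% of all genes rose instead of 19.5%. The causes were not tested.

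Replicate numbers are shared between groups in the labels, but libraries of the same number did not deviate together (correlations -0.242 to 0.099, with 4 of 18 best correlated with their own number), so the numbers were not taken as pairs. With the replicate number as a block, 0 members rose in RBM5 KO, and 31 fell and 5 rose in RBM5 OE. The share of all genes called with this block was 1.08% in RBM5 KO and 37.5% in RBM5 OE.

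Family medians that moved by more than the spread between libraries were as follows. On log2(TPM + 1), which shrinks rare genes by its construction, they were 0.16 (HSPA, RBM5 KO), -0.22 (HSPA), -0.60 (DNAJA) and 0.10 (HSF) in RBM5 OE, and -0.24 (all members), -0.46 (HSPA), -0.031 (DNAJC) and 0.14 (HSF) in RBM5 OE against RBM5 KO. With no filter, which adds rare genes, they were -0.57 (HSPA) and 0.064 (DNAJC) in RBM5 OE and 0.069 (DNAJC) against RBM5 KO, and with library totals alone -0.042 (DNAJC against RBM5 KO). Without both libraries they were -0.056 (DNAJC) and 0.061 (HSF) in RBM5 KO, and -0.82 (HSPD and HSPE), -0.42 (CCT), -0.47 (DNAJB) and -0.030 (DNAJC) in RBM5 OE against RBM5 KO. With 1 library left out, the ranges were -0.041 to 0.14 (DNAJA), -0.040 to 0.017 (DNAJC), -0.076 to 0.061 (HSF, up to the value without both) and -0.13 to 0.28 (HSPD and HSPE) in RBM5 KO, -0.20 to 0.007 (DNAJB) and -0.054 to 0.021 (DNAJC) in RBM5 OE, and -0.48 to -0.30 (DNAJB), -0.12 to -0.038 (DNAJC), -0.619 to -0.421 (CCT, up to the value without both), -1.25 to -0.83 (HSPD and HSPE) and -0.36 to -0.24 (all members) in RBM5 OE against RBM5 KO.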
